A study of Mus musculus with 36 samples.

Results

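MPP4, the lymphoid-primed multipotent progenitor of mouse bone marrow, was profiled by ATAC-seq in 2 libraries of 10-week-old (young) mice and 2 libraries of 20-month-old (aged) mice, 4 of the 36 libraries of the series. All mice were C57BL/6 females by the study's methods. MPP4 cells were c-Kit+, Sca-1+ and Lin-, lacked IL-7R and CD150, and carried CD34, CD48 and Flt3, with 20000 cells per library. The members are these 4 libraries by their labels, and the 45433 of 105005 merged regions of the series that were called in at least 1 of them. The other 32 libraries, of HSCs, MPP1, MPP2, MPP3, GMPs, MEPs and CLPs of the same ages, serve to follow the MPP4 regions in cells that did not choose them. By a figure legend of the study, marrow of each age was pooled and then sorted in duplicate, while its text calls the ATAC-seq replicates biological. Both replicates of an age may thus hold cells of the same mice, and the spread between them may be technical.

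In ATAC-seq a transposase cuts open chromatin and inserts sequencing adapters, so that reads pile up at active promoters and enhancers. MPP4 stands below the HSC, has lost most self-renewal, expresses the cytokine receptor Flt3 and gives rise mainly to lymphocytes, through common lymphoid progenitors (CLPs), while it still feeds granulocyte and macrophage progenitors (GMPs). Its lymphoid priming rests on transcription factors such as Ikzf1, Tcf3, Mef2c and Satb1, which open lymphoid enhancers before lymphoid genes are fully expressed. Lymphoid output falls with age in mice, and the comparison asks which accessible regions of MPP4 differ between the ages.

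The 4 libraries held 34548 and 34417 peaks in young MPP4 and 33302 and 34633 peaks in aged MPP4. The mean number was 34482.5 ± 92.6 in young and 33967.5 ± 941 in aged MPP4 (SD, n = 2 each), a difference smaller than the spread of the aged libraries (two-sided exact permutation test, p = 1, smallest possible p = 0.333). The authors had thinned every library to the same number of reads, and the background level behind the peaks gave a read number of 8.99 M in each of them. For this, the peak names give a kept share of 0.7118 and 0.9163 of the reads in the young and 0.6136 and 0.6999 in the aged libraries. The deposited peak names of both aged MPP4 libraries, and of neither young one, hold the word "new", as do those of 9 aged and 2 young libraries of the whole series, and within MPP4 this and age cannot be told apart. Young replicate 2 stood somewhat apart from the other 3 libraries. The bases it shared with peaks of GMPs, over all bases covered (Jaccard index, mean over 4 GMP libraries), came to 0.445, against 0.387 in young replicate 1, 0.403 in aged replicate 1 and 0.409 in aged replicate 2. The main results are also given without it.

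The markers of MPP4 matched the label in part. The region at the transcription start site (TSS) of Flt3, Il7r, Satb1 and Mef2c was called in all 4 MPP4 libraries, and that of Notch1 in 1 young and 1 aged library. Dntt, which adds bases at antigen receptor joints, had no region within 1000 bp of its TSS but 4 regions nearby that were called in all 4 libraries. Of the defining genes of other cells, the TSS of Mpo, Elane, Cebpe and Csf1r (myeloid), Procr (stem cell), Vwf (megakaryocyte) and Lck (T cell) was called in none of the 4, while the TSS of Hlf (stem cell) and Pf4 (megakaryocyte) was called in all 4 and that of Mecom in 1 young and both aged libraries.

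The sequences that carry the findings below are shown first, as the 201 bases around the strongest summit of a region, from the RefSeq sequence of GRCm38.p6 (mm10), plus strand. Capitals mark matches, on either strand, to 1 of 15 short motifs named below. The first set lies in regions called in both aged and neither young MPP4 library: 3 of those that all CLP libraries shared and all HSC libraries lacked (near Smad1, S1pr1 and Id2), an intron of Bcl11a, and a region with the IRF letters (nearest to Cox7c).
Smad1 (chr8:79415018-79415218): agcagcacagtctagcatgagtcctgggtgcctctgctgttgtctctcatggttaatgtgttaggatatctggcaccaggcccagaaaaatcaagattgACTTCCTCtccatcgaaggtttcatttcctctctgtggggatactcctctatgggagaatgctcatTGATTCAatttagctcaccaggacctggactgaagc
S1pr1 (chr3:115729257-115729457): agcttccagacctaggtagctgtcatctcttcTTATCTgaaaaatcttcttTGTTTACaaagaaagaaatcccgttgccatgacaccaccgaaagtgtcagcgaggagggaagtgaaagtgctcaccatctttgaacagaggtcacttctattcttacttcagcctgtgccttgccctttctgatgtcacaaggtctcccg
Id2 (chr12:25431045-25431245): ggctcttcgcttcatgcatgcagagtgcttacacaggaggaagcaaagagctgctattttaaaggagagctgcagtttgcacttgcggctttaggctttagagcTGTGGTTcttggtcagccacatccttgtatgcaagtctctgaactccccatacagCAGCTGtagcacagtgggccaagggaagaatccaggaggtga
Bcl11a (chr11:24131902-24132102): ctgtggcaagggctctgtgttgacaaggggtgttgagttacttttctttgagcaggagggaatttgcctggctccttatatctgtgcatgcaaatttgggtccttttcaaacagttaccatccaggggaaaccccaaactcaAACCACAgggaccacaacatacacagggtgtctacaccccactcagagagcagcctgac
Cox7c (chr13:85724268-85724468): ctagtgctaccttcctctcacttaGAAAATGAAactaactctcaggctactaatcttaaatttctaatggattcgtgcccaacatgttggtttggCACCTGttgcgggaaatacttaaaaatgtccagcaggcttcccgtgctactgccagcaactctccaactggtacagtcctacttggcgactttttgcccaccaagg

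The second set lies in regions called in both young and neither aged MPP4 library: an intergenic region nearest to Serp2 and an intron of Mef2c. Both windows shown hold the AP-1 letters, as do 21.05% of all young-only windows. The strongest young-only window, nearest to Frg1, and that of the Mef2c intron region 79466 bp from the TSS lack them and are not shown. The aged-only Smad1 window above holds them as well.
Serp2 (chr14:76658274-76658474): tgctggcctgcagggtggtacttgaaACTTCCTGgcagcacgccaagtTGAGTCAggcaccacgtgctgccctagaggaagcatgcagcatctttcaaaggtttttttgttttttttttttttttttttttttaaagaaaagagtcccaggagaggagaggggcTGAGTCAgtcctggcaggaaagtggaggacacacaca
Mef2c (chr13:83597486-83597686): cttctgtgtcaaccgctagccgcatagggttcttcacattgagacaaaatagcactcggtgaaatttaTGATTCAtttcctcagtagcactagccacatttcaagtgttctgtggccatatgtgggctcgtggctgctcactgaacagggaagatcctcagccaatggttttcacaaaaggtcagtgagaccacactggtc

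The third, nearest to Rhou, was called in all 4 libraries and had the largest fold difference among the 5 shared regions with the smallest p on the aged side.
Rhou (chr8:123672721-123672921): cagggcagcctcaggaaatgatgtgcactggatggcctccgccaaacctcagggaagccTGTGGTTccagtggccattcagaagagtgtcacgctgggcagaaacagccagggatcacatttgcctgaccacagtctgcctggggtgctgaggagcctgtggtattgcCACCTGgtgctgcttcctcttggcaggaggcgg

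Regions called in both libraries of one age and neither of the other were slightly more frequent than such regions under other pairings of the 4 libraries. Of the 45433 MPP4 regions, 1152 (2.54%) were aged-only and 1224 (2.69%) were young-only, 2376 in all. When the libraries were instead paired by replicate number, 781 regions were called in both replicates 1 alone and 957 in both replicates 2 alone, 1738 in all. The remaining pairing gave 1037 and 833 regions, 1870 in all. With peaks of a -log10 q of at least 10, 593 regions were aged-only and 1098 young-only. The pairing by age thus gave 1.32 times the mean of the other pairings, and as the highest of 3 pairings it had an exact permutation p of 0.333, the smallest that 4 libraries allow. Most age-only regions were weak. The lower of the 2 percentiles of fold enrichment within the library had a median of 15.7 in aged-only and 14.2 in young-only regions, and 26 aged-only and 53 young-only regions lay above the 50th percentile in both of their libraries.

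**Figure D1:**
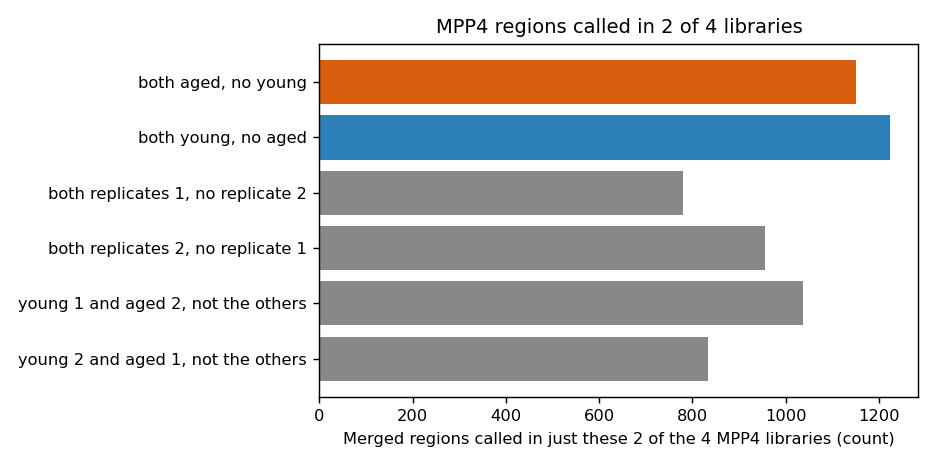
Bars give the number of merged regions called in exactly the 2 named MPP4 libraries and in neither of the others (x axis, count). The 2 patterns of age (orange 1152, blue 1224) are each above the 4 other patterns (grey, 781 to 1037).

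Few age-only regions lay at promoters, from 1000 bp before to 100 bp after a TSS. Promoters made up 82 of the 1152 aged-only regions (7.12%), 146 of the 1224 young-only regions (11.9%), 12.1% of the 3608 regions of the other pairings and 22.1% of all MPP4 regions. Introns held 42.5% and intergenic sequence 44.7% of the aged-only regions, and 40.6% and 41.3% of the young-only regions.

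The 8 aged-only regions with the highest percentile were led by an intron of Gas6, a ligand of the TAM receptor kinases (chr8:13472149-13472695), with fold enrichment over background of 11.3 and 12.7 in the aged libraries and no call in the young ones. This region was not particular to MPP4 age: 10 of 16 young and 10 of 16 aged libraries of the other fractions had it as well. The next, at -15590 bp from the TSS of Smad1, a transducer of BMP signals (chr8:79414859-79415357), had 11.1 and 11.3 in aged MPP4 and was called in all 4 GMP and all 4 CLP libraries and in no HSC, MPP1, MPP2, MPP3 or MEP library. A region in an exon of Pde4dip (chr3:97710085-97710616) had 11.8 and 10.7 and elsewhere had calls in 3 of 16 young but 11 of 16 aged libraries, among them 3 aged HSC libraries and no young one. An intron of Fyn, a kinase of lymphocyte receptor signalling (chr10:39402555-39402847), had 9.53 and 10.4 and went the other way elsewhere, with calls in 13 young and 7 aged libraries. The other 4 were introns of Shcbp1l, Cd59a and Chrm3 and an intergenic region nearest to Cox7c, with 9.16 to 10.6 in the aged libraries. The region ranked eighth had a lower percentile of 59.5 and the ninth one of 57.8.

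The strongest young-only region lay at -793131 bp from the TSS of Frg1 (chr8:42209896-42210513), with fold enrichment of 21.5 and 15.5 in the young libraries, and was called in 4 young and 1 aged of the other libraries. A region nearest to Serp2 (chr14:76658106-76658650) had 18.1 and 13.6 and was called in 11 young and 10 aged libraries elsewhere. A region nearest to Gm21860 on chromosome Y (chrY:90765285-90765940) had 14.6 and 14.6, and an intron of Mid1 on chromosome X (chrX:169991097-169991620) had 12.6 and 11.5. Both were called in 11 of 16 young libraries of the other fractions, and in 1 and 2 of 16 aged ones. Mid1 crosses into the pseudoautosomal region, where the X and Y copies are near-identical, so the placement of reads between these 2 regions is uncertain, and the mice were female. The region nearest to Erlin2 (chr8:27008834-27009299) had 13.3 and 11.6 and was called in 8 young and 3 aged libraries elsewhere. The others were nearest to Gm20403, Gm5096 and Zfp386, with 10.9 to 12.3. The eighth had a lower percentile of 67.4 and the ninth one of 66.5.

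Aged-only and young-only regions differed in their sequence letters. A set of 15 motifs was searched on both strands within 100 bp of the summit: PU.1 (letters GAGGAAGT), ETS (letters CAGGAAGT), C/EBP (letters TTGCNNAA), IRF (letters GAAANNGAA), CTCF (letters CCACNAGG), EBF (letters CCCNNGGG), STAT (letters TTCNNNGAA) and HOX-MEIS (letters TGATTTAT), and, with fewer letters, RUNX, which was searched as TGTGGTT, the first E-box, which was searched as CAGCTG, the second E-box, which was searched as CAGGTG, the GATA motif, which was searched as AGATAA, AP-1, which was searched as TGANTCA, TCF/LEF, which was searched as CTTTGAT, and FOX, which was searched as TGTTTAC. The AP-1 letters are a loose form of the site of Fos and Jun dimers. They allow any base at N, as in the TGATTCA of the Mef2c window above, so not every match is such a site. These letters stood in 257 of 1221 young-only windows (21.05%) and in 8.80% of 1148 aged-only windows, against 13.1% of all 45333 MPP4 windows. In the 4 other patterns of 2 libraries the share was 11.5%, 12.8%, 9.37% and 13.3%. The IRF letters, bound by interferon regulatory factors, went the other way, with 152 aged-only windows (13.2%) and 75 young-only windows (6.14%), against 7.10% of all MPP4 windows and 3.97% to 8.70% in the 4 other patterns. The AP-1 difference, aged-only minus young-only, was -12.3 percentage points, -9.46 without young replicate 2 and -14.3 to -8.72 over all settings that were run. The IRF difference was less stable: 7.10 points fell to 3.68 without young replicate 2, to 3.98 without aged replicate 1, to 3.77 without aged replicate 2 and to 4.26 with a -log10 q of at least 10. The RUNX letters stood in 15.5% of aged-only, 11.3% of young-only and 11.6% of all windows, with 7.45% to 12.7% in the other patterns. The STAT letters stood in 7.23% and 4.01%, which the other patterns spanned (3.67% to 7.85%). PU.1 was in 7.32% and 8.52%, and the letters of EBF, the factor that starts the B cell programme, in 6.27% and 6.72%. These shares describe the windows and are not binding sites.

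Away from promoters the AP-1 letters stood in 9.01% of aged-only and 23.3% of young-only windows, and the IRF letters in 13.4% and 6.60%. The median GC content away from promoters was 49.3% in aged-only and 49.8% in young-only windows. With promoters included it was 49.3% and 50.7%.

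The AP-1 letters differed over whole libraries too, whose windows include those of the age-only regions above, so the 2 comparisons are not independent. They stood in 13.77% and 13.83% of the windows of young and in 11.85% and 11.87% of the windows of aged MPP4. The ages did not overlap, which at 2 libraries per age was also so for 8 of the 15 motifs in all. Among regions called in all 4 libraries, the 3053 with AP-1 letters had a median difference in log2 fold enrichment, aged minus young, of -0.06, and 41.5% of them were higher in aged MPP4, against 51.0% of the 20354 without. At an unadjusted limma p under 0.05, 59 of the regions with AP-1 letters were higher and 130 lower, together 6.19% of them, and of those without 651 were higher and 492 lower, 5.62%. These shares are near the 5.71% of all shared regions, and the difference in direction between the 2 kinds of region was not tested. For IRF, 77 were higher and 32 lower (7.14%), and 53.6% of 1526 regions were higher in aged MPP4. Without quantile normalisation 24.6% of the regions with and 32.6% of those without AP-1 letters were higher in aged MPP4, so regions with AP-1 letters were mostly lower under either scaling and those without were mostly lower only without normalisation. For IRF letters these shares were 37.3% and 31.1%, so regions with IRF letters were mostly higher only after normalisation.

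In the other 7 fractions the AP-1 share differed by a mean of -0.46 percentage points between aged and young libraries (exact permutation of ages inside each fraction, two-sided, p = 0.112, adjusted p = 0.42 over the 15 motifs), lower in 6 of 7 fractions. The IRF share was 0.26 points higher in aged libraries and higher in 6 of 7 fractions (exact permutation p = 0.0057, adjusted p = 0.0861), and no motif passed the adjustment over all windows. Outside promoters the IRF difference was 0.35 points (exact permutation p = 0.000449, adjusted p = 0.00673 over the 15 motifs), and GATA (0.34 points, adjusted exact permutation p = 0.0316) and HOX-MEIS (-0.064 points, adjusted exact permutation p = 0.0304) also passed, while AP-1 did not (-0.55 points, adjusted exact permutation p = 0.298). Without the libraries whose peak names hold "new" the AP-1 difference was -0.24 points (exact permutation p = 0.397). The IRF difference was then 0.37 points and the RUNX difference 0.48 points (adjusted exact permutation p = 0.0248 for each). GATA (0.44 points, adjusted exact permutation p = 0.106) and HOX-MEIS (-0.0156 points, adjusted exact permutation p = 0.596) did not pass without these libraries. In MPP1 to MPP3 the AP-1 share was lower in each aged library whose peak names hold "new" than in both young libraries of its fraction, and in neither aged library without the word. Young MPP1 had 12.9% and 12.1%, and aged MPP1 had 13.1% in the library without and 11.6% in the library with it. Young MPP2 had 12.7% and 12.8%, and aged MPP2 13.1% without and 10.7% with it. In MPP3, where both aged libraries have the word, young libraries had 11.97% and 12.6% and aged ones 11.1% and 11.9%. Outside the MPPs the share had no single direction with the word. No GMP library has it, and both aged GMP libraries (9.74% and 10.02%) lay below both young ones (10.7% and 10.6%). In HSCs, aged replicate 2, the only one with it, had 11.9% beside 13.1%, 8.87% and 8.36% in aged HSC replicates 1, 3 and 4. Young HSC replicates 1, 2, 3 and 4 had 12.1%, 11.7%, 9.29% and 12.2%. In CLPs the libraries with the word had 6.92% (young) and 7.12% (aged), and those without had 6.79% and 6.49%. In MEPs they had 3.31% (young) and 3.87% (aged), against 3.52% and 3.51%. Its part in the AP-1 difference of MPP4 cannot be told apart from age.

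**Figure D2:**
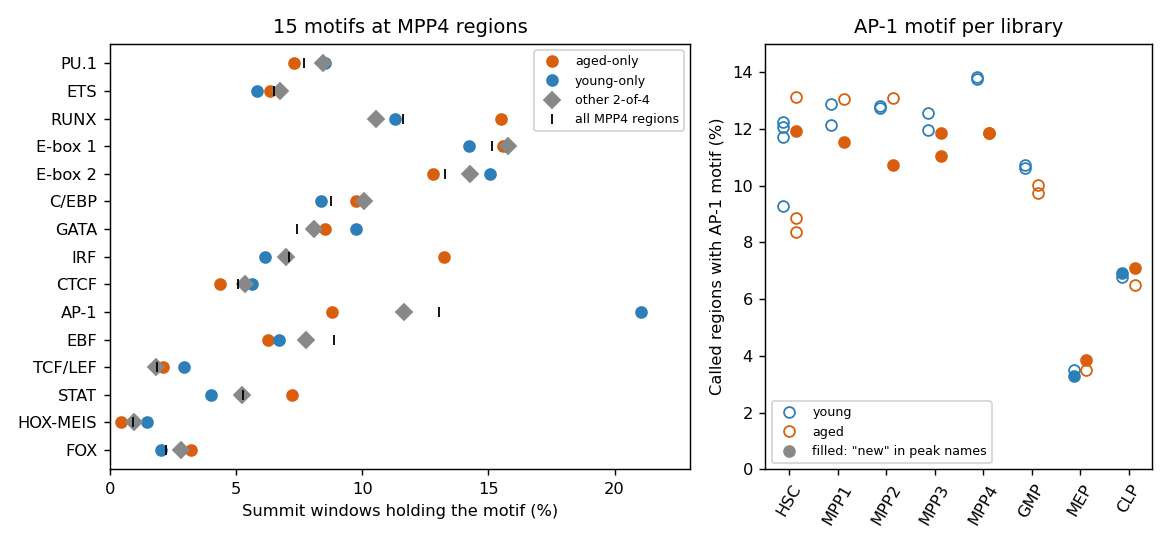
Left, share of 201-base summit windows (x axis, %) that hold each of 15 motifs, for aged-only, young-only, other 2-of-4 and all MPP4 regions. Right, share of called regions with the AP-1 letters (y axis, %) in each of 36 libraries by fraction and age, filled where the peak names hold "new". AP-1 separates young-only (21.05%) from aged-only regions (8.80%), and both aged MPP4 libraries lie below both young ones.

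The MPP4 age-only regions were next looked up in the 32 libraries of the other fractions, which had no part in choosing them. Shares were set against those of the 3608 regions called in 2 of 4 MPP4 libraries under the other pairings, since libraries differ in how much they call. Over the 7 fractions, the share of MPP4 aged-only regions that was called, minus this control, was 4.19 percentage points higher in aged than in young libraries. The mean was higher in all 7 fractions, without overlap in 5 of them (two-sided exact permutation test with ages permuted within fractions, p = 1.04e-05, 3265920 labellings). The difference was 2.33 points without young MPP4 replicate 1, 3.01 without young replicate 2, 2.44 without aged replicate 1 and 2.91 without aged replicate 2, and 2.01 points where peaks had to cover 50% of a region, with exact permutation p of 0.000188 to 0.00457. For MPP4 young-only regions the difference was -3.10 points (p = 0.00077, same exact test), with a lower mean in 5 of 7 fractions. This second shift rested on both young MPP4 libraries: with the young-only regions set without young replicate 1 or without young replicate 2, it was -1.11 and -1.49 points (exact permutation p = 0.281 and 0.144).

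The fractions are given in turn, and whether they differ in these shifts was not tested. In MPP3, 32.9% and 30.4% of the aged-only regions were called in the young libraries, beside 42.3% and 44.8% of the control regions. In aged MPP3 the shares were 22.8% and 34.03%, beside 25.3% and 39.7% of the control regions. In MPP2 they were 27.1% and 29.8% in young (control 35.1% and 36.1%) and 44.4% and 34.6% in aged libraries (control 47.3% and 34.7%). Over MPP1 to MPP3 the aged-only regions differed by 6.32 points and the young-only regions by -6.04 points, each with the smallest exact permutation p that 3 fractions allow, 0.00926. In HSCs, with 4 libraries per age, aged-only regions lay 0.03 points below to 4.66 points above the control in aged and 1.58 to 5.01 points below it in young libraries, a difference of 6.25 points (exact permutation p = 0.0286, the smallest possible). The HSC difference for young-only regions came to -3.61 points, with an exact permutation p of 0.0571. In GMPs, MEPs and CLPs together aged-only regions differed by 1.37 points, with an exact permutation p of 0.111, and young-only regions by 0.00317 points, with an exact permutation p of 1. Of these 3, CLPs alone had no overlap for aged-only regions, which lay 9.82 and 8.42 points above the control in young and 13.1 and 11.6 points above it in aged libraries, a difference of 3.22 points (exact permutation p = 0.333, the smallest possible). Marrow of one age and number may have been shared by fractions, so libraries of different fractions may not be independent. HSC replicates 3 and 4, whose numbers no MPP4 library has, gave 6.99 points for aged-only and -4.95 points for the young-only ones. Without the libraries named "new", the differences over 6 fractions were 3.44 points (exact permutation p = 0.000397) and -2.31 points (p = 0.00516, same exact test).

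**Figure D3:**
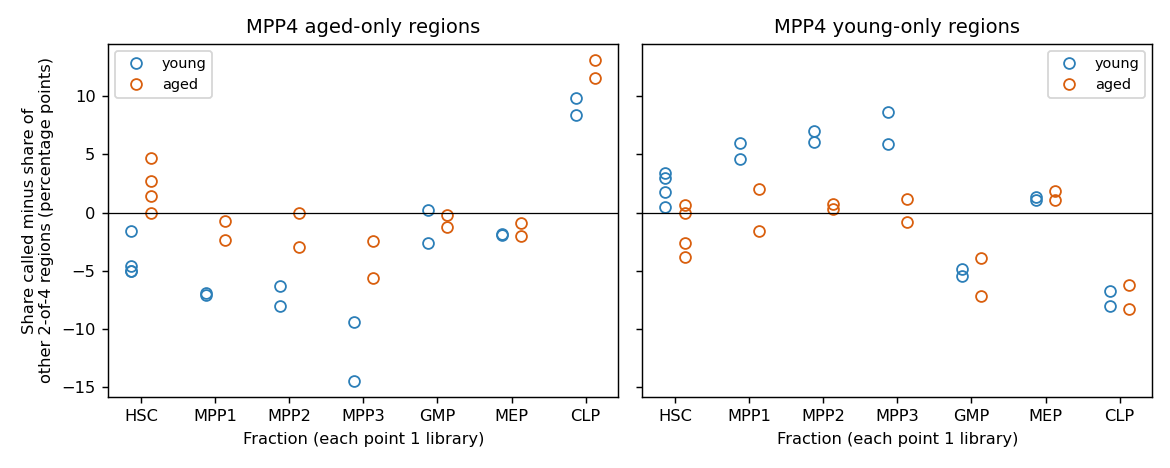
Share of MPP4 aged-only (left) and young-only regions (right) called in each library of the other fractions, minus the share of the other 2-of-4 regions in that library (y axis, percentage points). Each point is 1 library, blue young and orange aged. In HSCs and MPP1 to MPP3 the aged libraries lie above the young ones on the left (by 5.44 to 7.86 points) and mostly below them on the right, and in CLPs all 4 libraries are above 0 on the left and below 0 on the right.

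In CLPs of both ages the aged-only regions of MPP4 were called more often than the control. In CLPs, 39.8% and 48.0% of the aged-only regions were called in young and 35.2% and 48.7% in aged libraries. The control shares were 29.9% and 39.6% in young and 22.03% and 37.1% in aged libraries, and those of the young-only regions were 23.2%, 31.5%, 15.8% and 28.8%. In each of the 4 CLP libraries the aged-only share was above, and the young-only share below, that of the control. This order was not tested. GMPs called more of the aged-only regions than CLPs, 52.5% and 60.5% in young and 61.9% and 62.1% in aged libraries, beside 52.3%, 63.1%, 63.2% and 62.3% of the control regions and 47.5%, 57.6%, 55.96% and 58.3% of the young-only regions. GMPs held the most peaks of the series. MEPs, the megakaryocyte and erythroid progenitors, called 0.781% to 2.00% of the aged-only and 3.92% to 5.47% of the young-only regions. These libraries held the fewest peaks of the series.

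To look at this from the side of the CLP, regions were set by the other fractions alone: 4025 regions were called in all 4 CLP and none of the 8 HSC libraries. Many of them, 2573, were also called in all 4 GMP libraries and 822 in none, so the class is not particular to lymphoid cells. Young MPP4 libraries called 43.3% and 46.0% of them, and aged MPP4 libraries 52.7% and 52.9%. Both aged libraries were above both young ones, by 8.14 percentage points (44.6% ± 1.95 against 52.8% ± 0.141, SD, n = 2 each, two-sided exact permutation p = 0.333, the smallest possible). Without young replicate 2 the difference was 9.52 points. Of the aged-only regions 176 (15.3%) were of this class, against 43 (3.51%) of the young-only regions and 6.51% of the regions of the other pairings.

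The split by GMP calls gave different values. Of 2573 regions called in all CLP and all GMP libraries and in no HSC library, MPP4 called 51.4% and 59.2% in young and 64.5% and 65.3% in aged mice. Of 822 regions called in all CLP libraries and in no HSC or GMP library, it called 24.6% and 18.6% in young and 24.9% and 24.3% in aged mice, which overlap within the spread. Of 12586 GMP regions without a call in HSCs or CLPs, it called 4.07% and 8.84% in young and 4.67% and 4.86% in aged mice, where young replicate 2 stood apart. For the opposite class, 2516 regions called in all 8 HSC and no CLP library, the shares were 53.7% and 49.1% in young and 44.0% and 50.5% in aged MPP4, which overlap.

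**Figure D4:**
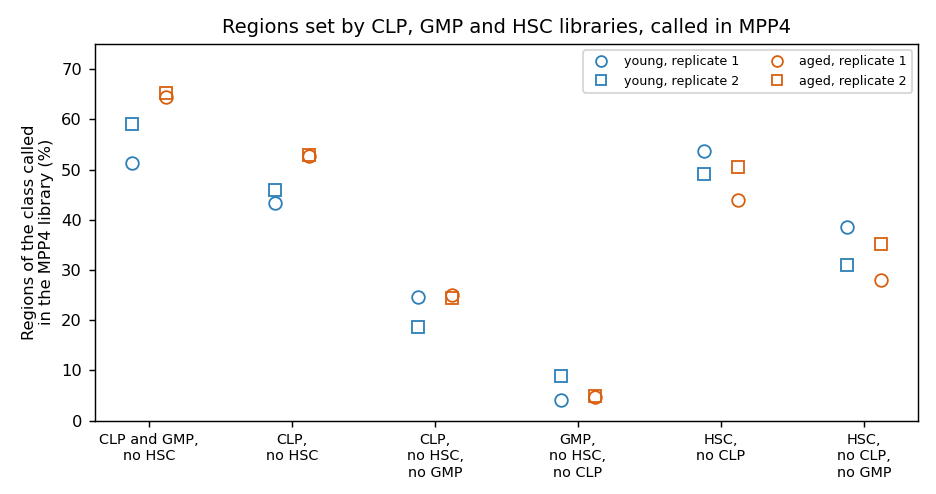
Share of the regions of 6 classes (x axis), set by CLP, GMP and HSC libraries, that each MPP4 library called (y axis, %). Circles are replicates 1 and squares replicates 2, blue young and orange aged. Both aged libraries lie above both young ones in the first 2 classes (64.5% and 65.3%, and 52.7% and 52.9%).

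The same 4025 regions were called at shares of 5.37% and 7.13% in young and 11.1% and 5.22% in aged MPP1, of 12.3% and 13.4% in young and 24.02% and 16.1% in aged MPP2, and of 21.2% and 34.2% in young and 17.1% and 32.5% in aged MPP3. A difference without overlap thus appeared in MPP4 and MPP2 and not in MPP1 and MPP3, and whether the fractions differ in it was not tested. In MPP2 the aged library without the word "new" (24.02%) was the higher one.

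Where the regions were called in all 4 MPP4 libraries, fold enrichment of the CLP regions was shifted upward in aged MPP4 relative to all shared regions. Of the 1210 CLP regions without HSC calls among them, 766 were higher and 444 lower in aged MPP4 after quantile normalisation, a median difference of 0.10 in log2 fold enrichment, against 49.8% higher and a median of -0.0014 over all 23464 shared regions. At an unadjusted limma p under 0.05, 93 of them were higher and 25 lower, together 9.75% of them against 5.71% of all shared regions. Without normalisation the shift was relative only: 598 were higher and 612 lower, with a median of -0.0033, beside 31.5% higher and a median of -0.12 over all shared regions. Of these regions 1014 were also called in all GMP libraries (659 higher, 355 lower, median 0.11), and 86 in no GMP library (48 higher, 38 lower, median 0.08). Of the 1478 regions called in all GMP and no HSC libraries, which include these 1014, 907 were higher and 571 lower, with a median of 0.09 and 9.34% at that p. The 138 of them without a call in CLPs had 66 higher and 72 lower, with a median of -0.04. Of the 723 shared regions called in all HSC and no CLP libraries, 288 were higher and 435 lower, a median of -0.08, and at that p 14 were higher and 51 lower (8.99%). Without normalisation 192 of them were higher and 531 lower, with a median of -0.19.

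The 8 aged-only regions of the CLP class with the highest percentile all had calls in all 4 CLP and all 4 GMP libraries. Besides the one near Smad1, they lay at -14311 bp from S1pr1, the receptor that guides lymphocyte egress (12.7 and 9.11), near Slc39a10, a zinc importer (8.47 and 9.21), in the natural killer receptor gene Klri2 (8.997 and 8.58), 23107 bp from the TSS of Nfkbiz, a modulator of NF-kB targets (8.26 and 8.28), in introns of Gng7 (8.47 and 8.11) and Gm17359 (7.94 and 8.58), and at -333964 bp from Id2 (10.1 and 8.04), an inhibitor of E proteins. None of the 8 was called in a young MPP4 library. Among the 43 young-only regions of the class, the strongest were nearest to Ceacam2 (9.78 and 10.7 in young MPP4), A430005L14Rik, Adsl and Pcdh9.

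At the 23464 regions called in all 4 MPP4 libraries, no difference in fold enrichment passed the threshold. With limma on quantile-normalised log2 values, 0 regions (0%) had a Benjamini-Hochberg adjusted p under 0.05, and the smallest was 0.249. At an unadjusted p under 0.05, 1340 regions differed, 5.71% of those tested, 715 of them higher in aged MPP4 and the others lower. That direction depended on the scaling: without quantile normalisation 274 were higher and 1667 lower (8.27%), where the median of all regions lay at -0.12, and 0 passed the adjustment. Without young replicate 1 the same test called 18 higher and 11 lower, and without young replicate 2 it called 16 and 3, where the lone young library is assumed to vary like the aged ones. Without either aged library it called 0. Differences from 5th to 95th percentile ran from -0.42 to 0.43, beside a median SD between replicates of 0.19. In the data, 10 regions were more than 2 times higher and 12 more than 2 times lower.

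The 5 regions with the smallest p on the aged side included an intergenic region nearest to Tnc (chr4:64497723-64498190), with 21.2 and 27.8 in young and 33.01 and 35.4 in aged MPP4 (difference 0.57 ± 0.10, SE, limma adjusted p = 0.318). The region nearest to Rhou had 5.97 and 5.84 in young and 15.7 and 12.9 in aged MPP4 (1.37 ± 0.25, SE, limma adjusted p = 0.32). It was called in all 4 CLP and none of 8 HSC libraries. One nearest to Rgs1, a brake on chemokine receptor signals (chr1:144215286-144215652), had 8.61 and 8.58 in young and 15.3 and 16.2 in aged MPP4 (1.00 ± 0.21, SE, limma adjusted p = 0.633), with calls in 3 aged HSC libraries and in no young one. An intron of Camkmt, nearest to the TSS of Six3, had 12.1 and 13.2 in young and 18.3 and 20.3 in aged MPP4. The smallest p itself belonged to an unplaced contig with low enrichment (1.63 and 1.51 against 1.96 and 1.84).

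Among those lower in aged MPP4, an intron of Ttc17 (chr2:94360551-94360921) had 18.5 and 19.4 in young and 7.41 and 8.04 in aged MPP4 (-1.17 ± 0.21, SE, limma adjusted p = 0.318). A region nearest to Ghitm (chr14:37329883-37330410) had 11.9 and 13.8 in young and 4.76 and 4.82 in aged MPP4. An intron of Foxn3, a forkhead repressor (chr12:99406165-99406637), had 15.3 and 12.3 against 4.88 and 5.91, and a region nearest to Olfr1507 had 16.3 and 14.7 against 5.82 and 7.50. The remaining one lay on an unplaced contig. The ages did not overlap in these 4 named regions, which were chosen by their p.

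Lymphoid genes were taken from 3 lists of 54 genes, for receptors, transcription factors and early effectors. They had 318 MPP4 regions, 162 of them called in all 4 libraries, and 7 aged-only and 10 young-only regions, 5.35% in all. Of 12 receptors, 0 of 53 regions were aged-only and 2 (3.77%) young-only. Of 24 transcription factors, 6 of 241 (2.49%) were aged-only and 8 (3.32%) young-only. Of 18 early effectors, 1 of 24 was aged-only and 0 young-only. These shares stand beside 2.54% and 2.69% of all MPP4 regions. The median difference at shared regions was -0.06 for receptors, -0.02 for transcription factors and 0.08 for effectors, and no region of the lists passed the limma adjustment (smallest adjusted p = 0.801).

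At the TSS, 23 of the 54 genes had a region called in all 4 libraries, 10 higher and 13 lower in aged MPP4, with differences of -0.32 to 0.54 and a median of -0.03. None had an unadjusted limma p under 0.05 and the smallest adjusted p was 0.864. Flt3, the receptor by which MPP4 was sorted, had 16.2 and 17.3 in young and 16.6 and 13.1 in aged MPP4 (-0.03 ± 0.18, SE). Il7r, the receptor that lymphoid progenitors need for growth, had 7.60 and 5.90 in young and 6.88 and 8.58 in aged MPP4 (0.26 ± 0.27, SE). Its promoter was called in no HSC library. The largest difference was at Ccr7, a homing receptor, with 6.52 and 6.20 in young and 7.94 and 9.65 in aged MPP4 (0.54 ± 0.26, SE, limma adjusted p = 0.864). The lowest was at Lef1, a T cell factor, with 7.17 and 7.26 in young and 5.54 and 5.57 in aged MPP4 (-0.32 ± 0.24, SE, limma adjusted p = 0.91). Ikzf1, which primes stem and progenitor cells for lymphoid genes, had 6.90, 9.70, 7.82 and 7.396 in young replicates 1 and 2 and aged replicates 1 and 2, and Satb1, a chromatin organiser, had 9.83, 10.1, 7.43 and 8.996 at its called promoter. These values were not normalised, and on that scale 31.5% of all shared regions were higher in aged MPP4. The groups overlapped at Flt3, Il7r and Ikzf1, and did not at Ccr7, Lef1 and Satb1. Ccr7 and Lef1 were named as the extremes. At 2 libraries per age a lack of overlap has an exact permutation p of 0.333, so it sets none of these genes apart.

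**Figure D5:**
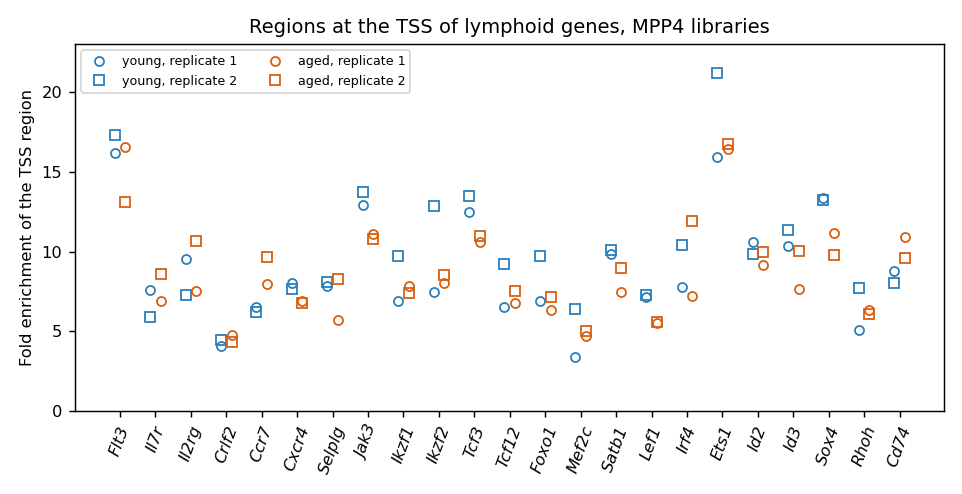
Fold enrichment over background (y axis) of the region at the TSS of the 23 genes of the lymphoid lists called there in all 4 MPP4 libraries. Circles are replicates 1 and squares replicates 2, blue young and orange aged. The differences run from -0.32 (Lef1) to 0.54 (Ccr7) on the log2 scale, and none passed the test.

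Of the 18 early effector genes, 2 had a region at the TSS in MPP4, Rhoh and Cd74, both called in all 4 libraries. Rag1, Rag2, Vpreb1, Cd79a and Ikzf3 had no MPP4 region nearest to them. Ebf1, which starts the B cell programme, had a promoter region called in young replicate 1 (3.64) and both aged replicates (5.57 and 4.05) but not in young replicate 2, and 3 regions called in all 4, among them one 264126 bp into the gene with 8.89 and 13.2 in young and 12.9 and 11.6 in aged MPP4. At Dntt the 4 shared regions had differences of -0.29 to 0.14, with 19.8 and 16.3 in young and 12.2 and 14.3 in aged MPP4 at the intronic region 1877 bp from the TSS. At Notch1, which drives T cell fate, the region at -9669 bp had 15.5 and 13.5 in young and 16.3 and 16.8 in aged MPP4. The sorting markers Cd34 and Kit had 7.76, 7.95, 6.34 and 7.58, and 7.61, 7.41, 7.46 and 7.73 at their promoters.

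Age-only regions of the lymphoid lists were found at 10 genes. Mef2c, a factor of lymphoid priming, had 26 MPP4 regions, 11 of them called in all 4 libraries. Of the others, 2 were aged-only, at -437637 bp (5.05 and 5.94) and 145436 bp (3.7999 and 5.46) from the TSS, and 2 were young-only, in introns at 21956 bp (8.39 and 7.85) and 79466 bp (8.50 and 7.25). Bcl11a, needed for B cell development, had 28 regions, with 9 in all 4 libraries, 2 aged-only in introns at 6626 bp (6.22 and 5.54) and 51338 bp (6.62 and 9.65), and 2 young-only at 214788 bp (6.64 and 8.36) and 321321 bp (5.71 and 7.31). At both genes the regions thus went in either direction. Sox4 had 2 young-only regions, and Ets1 (10.8 and 4.82), Pou2af1 (7.06 and 5.36), Cxcr4 (5.97 and 6.43) and Ccr7 (7.06 and 6.97) had 1 each. The Ets1 region had calls in 6 young and 0 aged libraries of the other fractions. Besides Id2, Ikzf2 (5.39 and 4.54) and Rhoh (4.27 and 4.89) had 1 aged-only region.

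In all, 9 shared regions of the lymphoid lists had an unadjusted limma p under 0.05, 5.56% of the 162 tested, no more than the 5.71% of all shared regions. Their values are given as a description. Tcf12, an E protein, had an intronic region with 7.06 and 5.58 in young and 10.7 and 11.7 in aged MPP4 (0.92 ± 0.26, SE, limma adjusted p = 0.801). A region at -292146 bp from Id2 (chr12:25389002-25389570) had 10.5 and 11.0 in young and 14.01 and 16.5 in aged MPP4 (0.64 ± 0.20, SE, limma adjusted p = 0.801), on the same side of the gene as its aged-only region. Blk (9.78 and 9.11 against 13.6 and 11.3) and Spib (10.9 and 9.22 against 10.7 and 16.2) also had a higher mean. Tcf4 had 2 regions with lower values in aged MPP4, Cd74 had 1, and Gata3 had 1 in each direction.

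The other lists hold few age-only regions each, to be read beside the 2.54% of all MPP4 regions that were aged-only and the 2.69% that were young-only. Of 37 regions of 12 genes that rise in aged HSCs, 3 were aged-only (8.11%) and 0 young-only. They were the promoter of Selp, an adhesion molecule (chr1:164115117-164115568), with 5.35 and 7.50, the promoter of Aldh1a1, a retinaldehyde dehydrogenase (chr19:20601546-20602204), with 6.04 and 4.47, and a region nearest to Plscr2 with 6.63 and 7.50 in aged MPP4. The Aldh1a1 promoter had calls in 8 young and 13 aged libraries elsewhere, and that of Selp in 5 and 8. Of 86 regions of 16 stem cell genes, 2 were aged-only (2.33%), at Meis1 (7.41 and 8.04) and in an intron of Prdm16 (10.5 and 6.47), and 5 young-only (5.81%), at Cd34, Myct1, Meis1, Mllt3 and Kit. Of 95 regions of 18 myeloid genes, 4 were aged-only (4.21%), at Fcgr3, Cebpb, Klf4 and Itgam, and 7 young-only (7.37%), at Ly86, Cebpb, Klf4, Csf3r and Cebpa. Meis1, Cebpb and Klf4 thus had regions in either direction. Of 26 regions of 10 megakaryocyte and erythroid genes, 0 were aged-only and 1 young-only, near Zfpm1. Of 69 regions of 12 cell cycle genes, 2 were aged-only, both at Cdk6, the kinase of cell cycle entry in stem cells, and 0 young-only.

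Of 34 regions of 10 interferon and antigen presentation genes, 1 was aged-only, the promoter of Ciita, the master regulator of MHC class II (chr16:10487798-10488231, 4.83 and 4.13), and 1 young-only, at -7078 bp from Socs3. The Ciita promoter was called in all CLP and GMP libraries and in no HSC, MPP1, MPP2 or MPP3 library. At the TSS of Socs3, a feedback inhibitor of cytokine signals, fold enrichment was 6.61 and 7.32 in young and 10.5 and 10.4 in aged MPP4 (0.68 ± 0.25, SE, limma adjusted p = 0.814). In this list 1 of 16 shared regions (6.25%) had an unadjusted limma p under 0.05, near the 5.71% of all shared regions. Of the genes named by the size of their TSS difference in the other lists, Meis1 (0.32), Pf4 (-0.30) and Jam2 (-0.30) were next, and none had an unadjusted limma p under 0.05. Over the 6 other lists the median difference at shared regions lay between -0.06 and 0.06.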

How the data were processed

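Nuclei of sorted cells were tagmented, libraries of 240 to 360 bp were sequenced as single reads, and the authors deposited 1 narrowPeak list per library. Per the submitters' notes, the tools were Bowtie2, SAMtools and MACS2 2.2.6 with mm10, and the authors kept equal read numbers and peaks with a -log10 q-value of at least 3. Each deposited peak has a score, a fold enrichment over background, a -log10 p-value and a -log10 q-value, all as MACS2 wrote them, and no counts, so no count model was run. Reads per library were derived from the steps of fold enrichment and p-value.

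Peaks sharing 1 bp or more across the 36 libraries formed the regions, named after the nearest TSS (GENCODE M21). Regions called in all 4 MPP4 libraries were compared with limma 3.58.1 (R 4.3.3) on quantile-normalised log2 fold enrichment, with Benjamini-Hochberg adjustment over all of them. Other values had exact permutation tests. Sequences were read with pysam 0.24.0 from GRCm38.p6. The fit was tested on simulated data. Members and lists were chosen with earlier results of these data known. Named were the 8 strongest age-only regions per direction, the 5 shared regions with the smallest p per direction, listed lymphoid genes with an age-only region, preset lymphoid and sorting genes, and the largest TSS differences of the other lists. The remaining named genes, among them those of the CLP class, other gene lists' age-only regions and shared lymphoid regions with a small p, were chosen after their values were seen. Alternatives changed the peak threshold, overlap, chromosomes, scaling, control regions, fractions and libraries. Those by group of fractions, without "new" libraries, by GMP calls within the CLP class, for motif shares, and by scaling within region classes and motifs were chosen after seeing the data.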

Additional observations from a re-analysis of the deposited data

How the results depend on the processing

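Peak lists hold no counts below the calling threshold, so a region without a call may still be open, and 4 libraries cannot give an exact p under 0.333. The difference in peak number was between -1180.5 and 150.5 when a library was left out, and reversed to 150.5 without aged replicate 1. With a -log10 q of at least 10, aged-only regions numbered 593 and young-only regions 1098, against 1152 and 1224. Aged-only regions numbered 2525 to 3704 when a library was left out, where 1 call then stands for an age. Young-only regions numbered 2332 to 4192 in that case. The limma calls ran from 0 to 18 higher and from 0 to 11 lower when a library was left out. With the replicate number as a block, 1 region was higher and 0 lower, but the numbers did not pair the libraries (correlation of same-numbered deviations -0.013). For aged-only regions in the other fractions, no smaller set changed direction, though p passed the threshold in none of these: HSC replicates 3 and 4 (6.99 points), MPP1 (5.44), MPP2 (5.66), MPP3 (7.86), GMP (0.452), MEP (0.437), CLP (3.22) and GMP, MEP and CLP together (1.37). For young-only regions the same held for HSC replicates 3 and 4 (-4.95), all HSCs (-3.61), MPP1 (-5.08), MPP2 (-5.98), MPP3 (-7.06) and GMP (-0.401), while MEP (0.266), CLP (0.145) and these with GMP together (0.00317) reversed. Leaving out an MPP4 library gave -2.74 to -1.11 points, without a pass when either young library was missing. A single fraction with 2 libraries per age cannot pass the threshold. The CLP regions kept the ages apart under all settings of peak threshold, overlap, chromosomes, peak number and class cut-off that were run, with 5.85 to 9.67 points. The cause of these changes was not tested.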
